A study of Rattus norvegicus with 12 samples.

Results

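The transcripts described here encode the nuclear parts of the mitochondrial respiratory chain and ATP synthase, measured in the rat oligodendroglial line OLN after p25alpha was expressed in it. Members were taken by gene symbol: Ndufa, Ndufb, Ndufc, Ndufs and Ndufv for complex I, Sdha to Sdhd for complex II, Uqcr and Cyc1 for complex III, Cycs for cytochrome c, Cox4 to Cox8 for complex IV and Atp5 for complex V. Of 31096 probe sets on the array, 93 carried such a symbol, and the 86 called present (detected) by the authors on at least 2 of the 12 arrays are the members. They stand for 72 gene symbols of 9364 among the 19248 probe sets that met the same present call rule and were tested. Complex I had 40 members for 33 symbols, complex II 6 for 4, complex III 7 for 6, cytochrome c 2 for 1, complex IV 11 for 10 and complex V 15 for 14. A further 5 members carry a matching symbol but are no chain subunit in the usual sense or have another role: Ndufaf1 (a complex I assembly factor), Cox7a2l (a factor of supercomplex assembly), Atp5s with 2 probe sets (now named Dmac2l) and Cox4nb (now named Emc8, a neighbour of Cox4i1 that encodes a protein of the endoplasmic reticulum).

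The respiratory chain sits in the inner mitochondrial membrane. Complexes I and II pass electrons from NADH and succinate to ubiquinone, complex III passes them to cytochrome c, complex IV passes them to oxygen, and the proton gradient built on the way drives ATP synthesis by complex V. Most subunits are encoded in the nucleus and are transcribed separately from the subunits encoded in mitochondrial DNA. Oligodendrocytes spend much ATP on membrane synthesis, and alpha-synuclein, which all of these cells carry, is known to associate with mitochondria.

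In the study, OLN cells with stable expression of alpha-synuclein were transfected with Fugene-6, either with p25alpha in pcDNA3.1 (p25alpha cells) or with the empty vector (mock cells). p25alpha, also named TPPP, is a tubulin-binding protein of oligodendrocytes. Total RNA was taken 8, 12 or 16 h later in 2 experiments, so the 6 groups (p25alpha and mock at each time) hold 2 arrays each, 1 per experiment. All groups, mock included, express alpha-synuclein, and cells without it are not analysed here. The share of cells that took up the plasmid is not given in the labels. Whether each experiment used its own culture is not stated in the labels, so a p-value here reflects variation among arrays, some of which may be technical.

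On each array 49.3% to 55.2% of probe sets had a present call, and the number of arrays, 12, limits the precision. Tppp, the gene of p25alpha, has no probe set under its symbol, so the transfected gene could not be checked. The ratio of the 3′ to the 5′ actin probe sets, a sign of RNA quality, lay at 2.14 to 3.12 in experiment 1 and at 4.65 to 7.05 in experiment 2, and in experiment 2 its highest value belonged to the mock array at 16 h. Of the oligodendrocyte lineage markers 8 of 16 genes on the array, among them Cnp, Sox10 and Olig1, were present on all 12 arrays, and 4 (Olig2, Mobp, Opalin and Ermn) on 0. Of the astrocyte genes 4 of 7, among them Gfap and S100b, were also present on all arrays, and 1 (Slc1a2) on 0. Present on all arrays were 3 of 10 neuron genes and 2 of 8 fibroblast and smooth muscle genes, with 2 and 3 on 0. Of the microglia genes 6 of 7 were present on none. Fewer cells of a kind and less RNA per cell cannot be told apart in such bulk samples.

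The chain was broadly detected: 77 of the 86 members were present on all 12 arrays. The other 9 had 2 to 11 present calls, such as Cox6b at 2.1 to 12.9 signal units and present on 2 arrays. The 7 probe sets with a matching symbol that did not reach 2 present calls had none on any array. They were the muscle-type or tissue-restricted forms Cox4i2, Cox6a2, Cox6b2 and Cox8h, and further probe sets of Atp5i, Atp5o and Ndufa8, whose genes were detected by another probe set. Their signals lay between 0.4 and 46.1 units.

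The first comparison asked whether respiratory chain transcripts differ when p25alpha is expressed, over all 3 times together. At a limma adjusted p under 0.05, 0 of 86 members passed in either direction, beside 0.239% of all tested probe sets (40 higher and 6 lower). The median member differed by 0.026 on the log2 scale (p25alpha minus mock, 1.018-fold) and 49 of 86 were higher, against a median of 0.013 and 52.7% higher over all tested probe sets. An unadjusted p under 0.05 was reached by 2 members (2.33%), against 13.99% of all tested probe sets. The fit has 1 term for the experiment, so changes with time that differ between experiments stay in the residual spread of any probe set. The part of this in the shares above was not tested. The 95% interval of 79 of the 86 members lay wholly within a 1.5-fold change either way, with a median half-width of 0.224 (1.168-fold). The same held for 12908 of the 19248 tested probe sets, whose median half-width was 0.289. Among probe sets present on all 12 arrays it held for 75 of 77 members and 11270 of 12906 tested, with median half-widths of 0.221 and 0.241. These intervals, like the p-values, reflect variation among arrays.

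**Figure D1:**
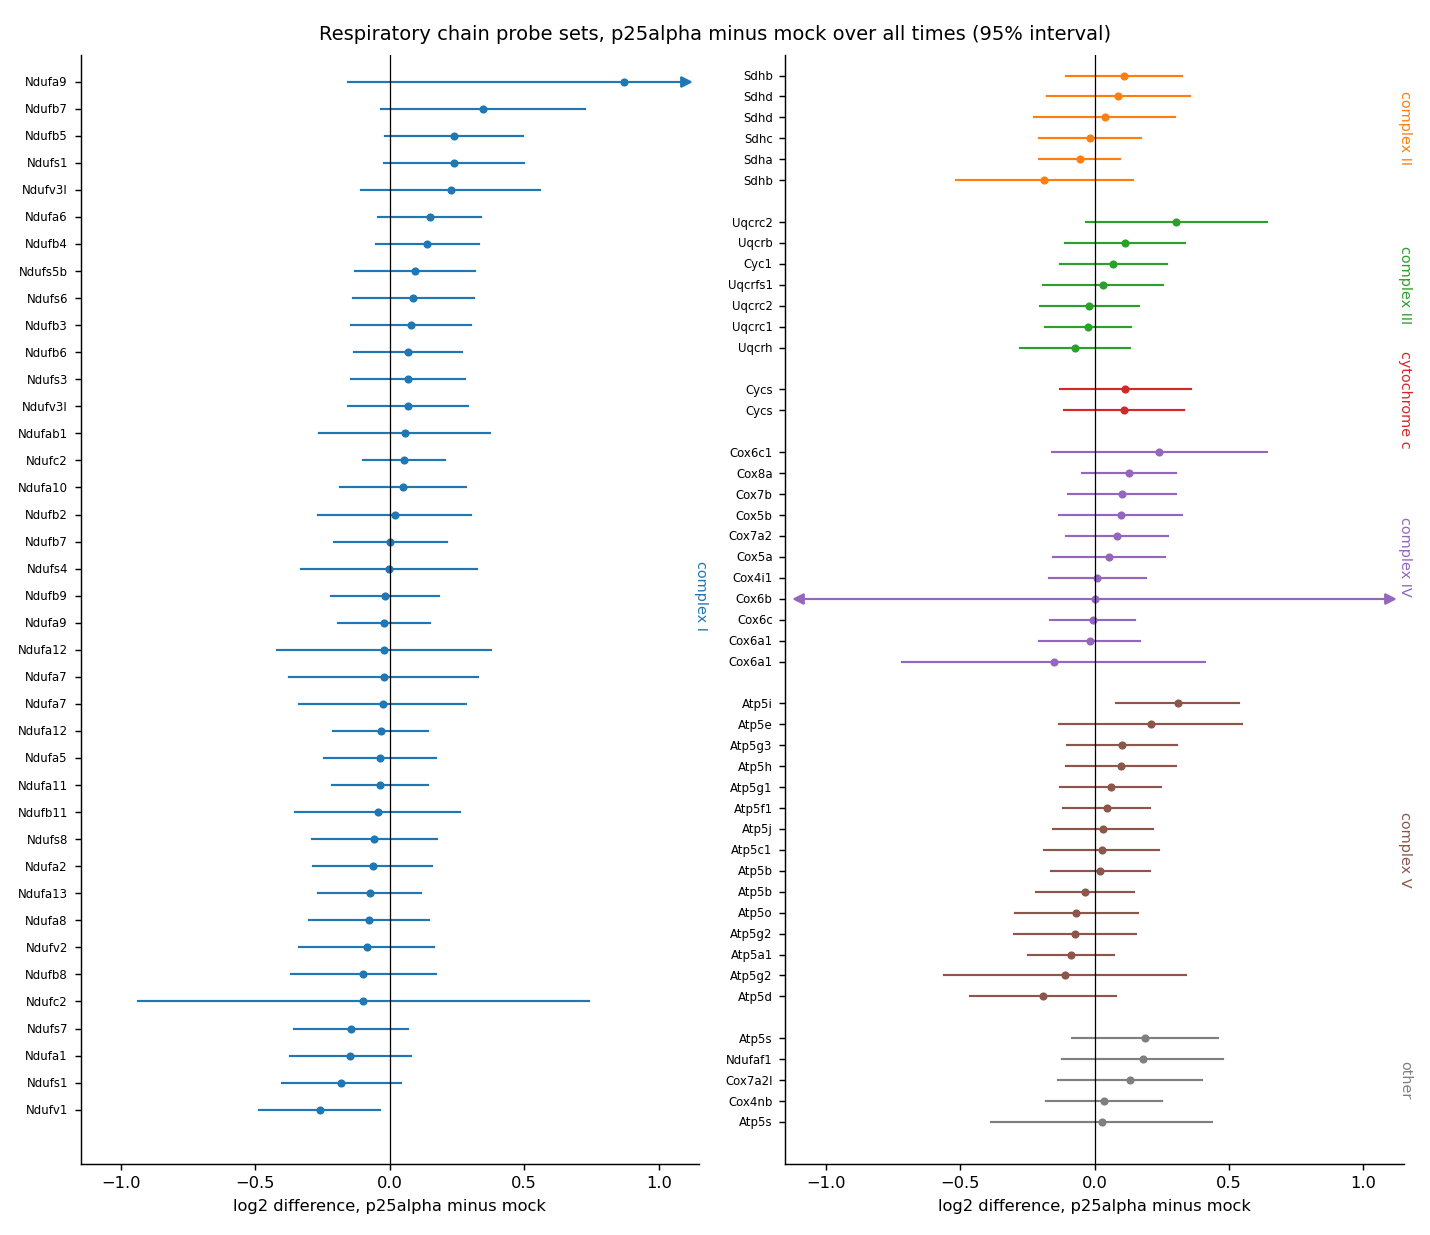
Fitted log2 difference of 85 of the 86 probe sets, p25alpha minus mock over all times (points), with the 95% interval of the limma fit (lines), sorted within each complex; arrowheads mark intervals that run past the axis. Most intervals include 0, the widest belong to probe sets with few present calls such as Cox6b, and Atp5i and Ndufv1 lie to either side of 0 without passing the adjusted threshold.

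By complex the medians over all times were -0.020 in complex I (18 of 40 higher), 0.010 in complex II (3 of 6), 0.032 in complex III (4 of 7), 0.112 in cytochrome c (2 of 2), 0.053 in complex IV (8 of 11), 0.026 in complex V (9 of 15) and 0.132 among the other members (5 of 5). Members share arrays and, for 14 genes, a transcript, so these counts are a description.

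Atp5i, now named Atp5me, encodes subunit e of ATP synthase, which takes part in joining the enzyme into dimers, and had the smallest p of all members over all times. It measured 574.9 and 627.7 signal units in p25alpha cells at 8 h, 648.2 and 684.4 at 12 h and 590.1 and 708.5 at 16 h, in experiments 1 and 2 in that order. Mock cells had 556.1 and 517.7 at 8 h, 551.3 and 460.5 at 12 h and 554.4 and 457.5 at 16 h. Every p25alpha value was above every mock value in this probe set, which was picked for its small p, and the pairs differed more in experiment 2. How many of all tested probe sets were separated in this way was not counted. The difference over all times was 0.31 ± 0.10 (log2, SE; 1.239-fold, 95% interval 1.057 to 1.452, higher in 6 of 6 pairs) and did not pass (adjusted p = 0.25).

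Ndufv1, the subunit of complex I that binds NADH and the flavin, had the second smallest p and lay lower. Its signals were 805.6 and 592.0 in p25alpha cells at 8 h, 653.3 and 544.5 at 12 h and 573.6 and 512.3 at 16 h. In mock cells they were 811.0 and 705.7 at 8 h, 744.1 and 768.3 at 12 h and 812.4 and 555.4 at 16 h. It was lower in 6 of 6 pairs, but the arms overlapped across times, the first pair at 8 h being nearly level. The difference was -0.26 ± 0.09 (0.835-fold, interval 0.714 to 0.975, adjusted p = 0.3).

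Also on one side in 6 of 6 pairs were Ndufb5 (an accessory subunit of the membrane arm of complex I, 0.24 ± 0.11, adjusted p = 0.384) and Atp5h (subunit d of the ATP synthase stalk, 0.10 ± 0.09, adjusted p = 0.644), both higher, and Ndufs7 (an iron-sulfur subunit of the peripheral arm of complex I, -0.14 ± 0.09, adjusted p = 0.517), which was lower. In all, 6.98% of the members and 11% of all tested probe sets lay on one side in all 6 pairs.

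The plot of signals by array shows Atp5i, Ndufv1 and Ndufb5 beside members of complexes II, III and IV and cytochrome c. Cox4i1, the regulatory subunit of complex IV, differed by 0.01 ± 0.08 over all times, higher in 3 of 6 pairs. Its 6 signals in experiment 1 were 3816, 3959 and 4336 in p25alpha cells and 3600, 3876 and 4579 in mock cells at 8, 12 and 16 h. In experiment 2 they were 3082, 2972 and 2979 in p25alpha cells and 3013, 2974 and 2994 in mock cells, so the experiments stood further apart than the arms did.

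**Figure D2:**
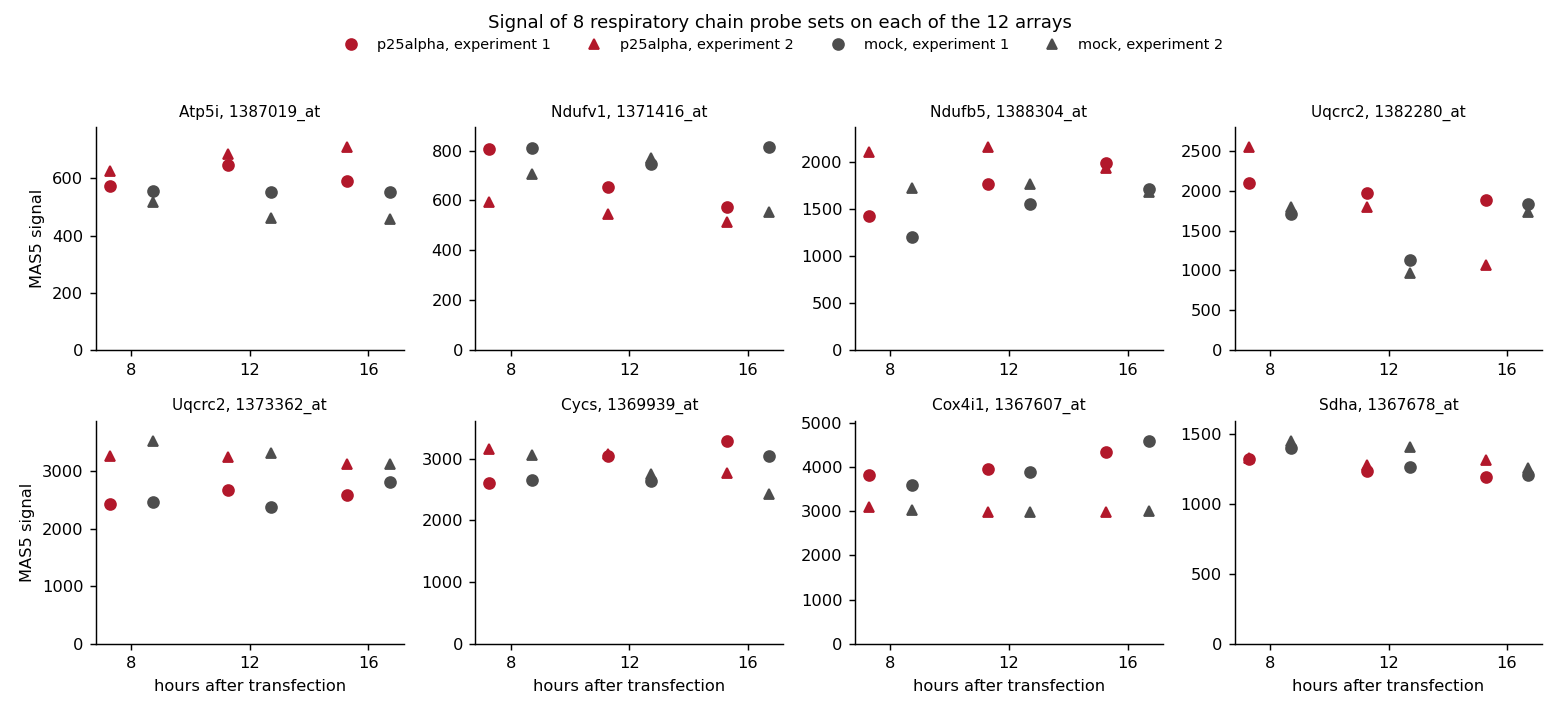
MAS5 signal (linear, from 0) of 8 probe sets on each array by hours after transfection; red symbols are p25alpha cells, drawn left of the grey mock cells, circles are experiment 1 and triangles experiment 2. Atp5i is higher and Ndufv1 lower in p25alpha cells in every pair, Uqcrc2 dips in mock cells at 12 h by one probe set only, and Cox4i1 and Cycs are highest at 16 h in experiment 1.

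The other named subunits are given as differences over all times. In complex II, which feeds electrons from the citric acid cycle, Sdha (the flavoprotein) differed by -0.06 ± 0.06, Sdhc by -0.02 ± 0.08 and the 2 probe sets of Sdhd by 0.09 ± 0.11 and 0.04 ± 0.11. Sdha measured 1320 and 1328 in p25alpha cells at 8 h, 1231 and 1277 at 12 h and 1194 and 1309 at 16 h, and 1400 and 1446, 1263 and 1407, and 1203 and 1252 in mock cells at the same times. In complex III, Uqcrc1 (a core protein) differed by -0.02 ± 0.07, Uqcrfs1 (the Rieske iron-sulfur protein) by 0.03 ± 0.09, Cyc1 (cytochrome c1) by 0.07 ± 0.08, Uqcrb by 0.11 ± 0.09 and Uqcrh (the hinge protein) by -0.07 ± 0.09. Both probe sets of Cycs, the mobile electron carrier, were higher in 5 of 6 pairs, by 0.11 ± 0.10 and 0.11 ± 0.09.

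In complex IV, Cox6c and Cox7b differed by -0.01 ± 0.07 and 0.10 ± 0.09, Cox7a2 by 0.08 ± 0.08, Cox5a and Cox5b by 0.05 ± 0.09 and 0.10 ± 0.10, and Cox8a by 0.13 ± 0.07. Cox6a1, the non-muscle form, differed by -0.02 ± 0.08 by a probe set present on all arrays and -0.15 ± 0.24 by one present on 9, and Cox6c1 (now annotated as the pseudogene Cox6c-ps1, which may share probe signal with Cox6c) by 0.24 ± 0.17. In complex V the catalytic subunits Atp5a1 and Atp5b differed by -0.09 ± 0.07 and, by its 2 probe sets, -0.03 ± 0.08 and 0.02 ± 0.08. Of the genes for the rotor's c subunit, Atp5g1 differed by 0.06 ± 0.08, Atp5g3 by 0.10 ± 0.09 and Atp5g2 by -0.11 ± 0.19 and -0.07 ± 0.10, and the second of these probe sets also lists RGD1566212. The central stalk subunits Atp5c1, Atp5d and Atp5e differed by 0.03 ± 0.09, -0.19 ± 0.11 and 0.21 ± 0.14. Adjusted p-values of all members in these 2 paragraphs lay above the threshold.

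Single times were compared next. At 8 h 0 of 86 members passed (0% of all tested probe sets), 45 were higher, the median was 0.010 against 0.008 over all tested, and 1 member (1.16%) had an unadjusted p under 0.05, against 4.88% of all tested probe sets. At 12 h 0 of 86 passed (0.0571% of all tested probe sets), while 61 were higher and the median was 0.106 (1.076-fold) against 0.024 over all tested, of which 53.4% were higher. At 16 h 0 of 86 passed (0.0571% of all tested probe sets), 44 were higher, the median was 0.002 against 0.010, and 0 members had an unadjusted p under 0.05, against 8.66% of all tested probe sets. The 95% intervals of 62, 50 and 54 members at 8, 12 and 16 h lay within a 1.5-fold change. So did those of 7206, 6346 and 6529 of the 19248 tested probe sets.

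At 12 h the median difference of the 86 members between the arms was 0.098 in experiment 1 (61 higher) and 0.095 in experiment 2 (57 higher), against 0.004 and 0.043 over all tested probe sets. At 8 h the pair medians were 0.024 and -0.012, and at 16 h they were -0.055 and 0.047, with opposite signs in the 2 experiments. Averaged over the experiments, all 11 members of complex IV had positive differences at 12 h (median 0.137), but 8 in the pair of experiment 1 and 9 in that of experiment 2. Both of Cycs and 6 of 7 of complex III were also positive (medians 0.189 and 0.068), and complex I had a median of 0.056 (25 of 40). Complex II had 0.036 (3 of 6), complex V 0.145 (9 of 15) and the other members 0.259 (5 of 5), and complex II had -0.04 in the pair of experiment 2. None of these members passed, and 5 of 86 (5.81%) had an unadjusted p under 0.05, against 9.33% of all tested probe sets. Against their 8 h level, the members at 12 h had a median of 0.107 in p25alpha cells (63 of 86 higher) and -0.012 in mock cells (41 higher) in experiment 1. In experiment 2 the medians were -0.05 in p25alpha cells (61 lower) and -0.152 in mock cells (72 lower), so both arms lay below their 8 h level there.

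**Figure D3:**
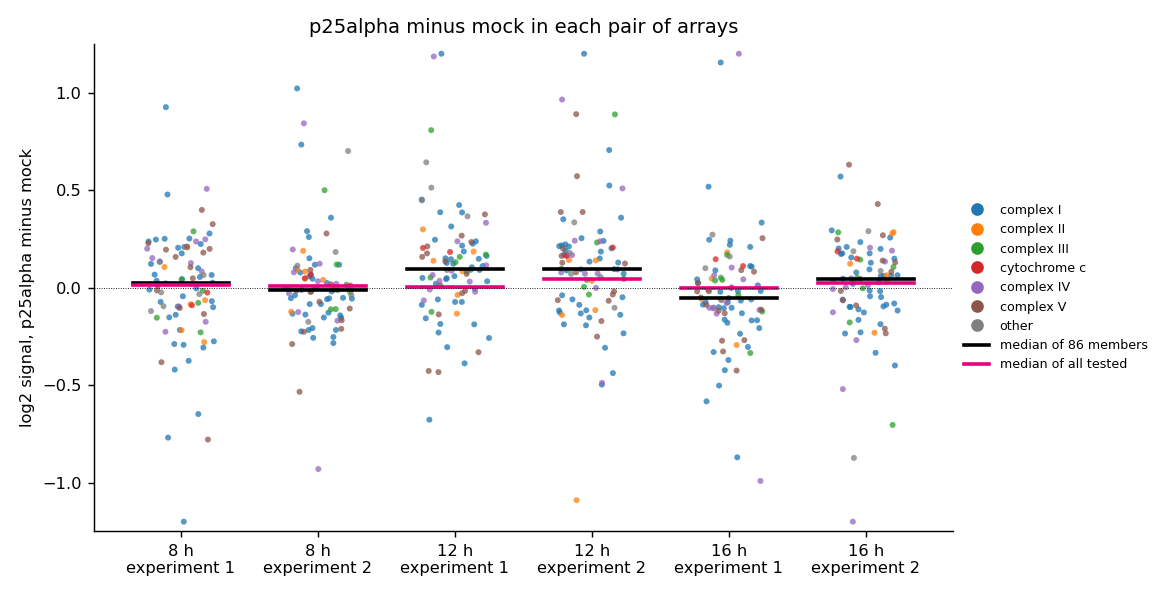
Log2 difference of each of the 86 members, p25alpha minus mock, in each pair of arrays by time and experiment (points, coloured by complex, values beyond 1.2 drawn at the edge), with the median of the members (black) and of all tested probe sets (magenta). The black line stands above the magenta one at 12 h in both experiments and changes side between experiments at 16 h.

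The members with the smallest p at 12 h were Ndufa9, Uqcrc2, Atp5b and Sdhb, in each case by 1 of 2 probe sets, and the other probe set gave a value nearer 0. Uqcrc2, a core protein of complex III, measured 1976 and 1794 by one of its 2 probe sets in p25alpha cells at 12 h, against 1129 and 969.2 in mock cells. These groups of 2 arrays did not overlap, but the probe set was picked for its small p. How many of all tested probe sets had such groups was not counted. The mock arrays at 12 h were the lowest of the mock arrays, which had 1715 and 1801 at 8 h and 1830 and 1733 at 16 h. The difference was 0.85 ± 0.25 (adjusted p = 0.414). By its other probe set the p25alpha cells had 2667 and 3241 at 12 h and the mock cells 2370 and 3321, a difference of 0.07 ± 0.14. The first probe set passed in 1 alternative, with trend and robust variance estimation (adjusted p = 0.0481, against 0.0481 to 1 over 23 alternatives). In that alternative 46 of 19248 tested probe sets passed higher and 11 lower at 12 h.

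Ndufa9 at 12 h rested on a probe set present on 3 of 12 arrays, with 16.0 and 24.0 in p25alpha cells and 1.1 and 7.3 in mock cells (2.79 ± 0.75, adjusted p = 0.389), while its other probe set, present on all arrays, had 823.3 and 872.2 in p25alpha cells and 874.9 and 820.3 in mock cells (0.00 ± 0.12). One probe set of Sdhb, the iron-sulfur subunit of complex II, had 103.8 and 35.6 in p25alpha cells and 113.8 and 75.8 in mock cells (-0.61 ± 0.24, adjusted p = 0.51), and the other 1680 and 1566 in p25alpha cells and 1478 and 1419 in mock cells (0.16 ± 0.16). Atp5b differed by 0.38 ± 0.13 by one probe set (adjusted p = 0.484) and by the other by -0.20 ± 0.13. Of 14 genes with 2 member probe sets, 6 had opposite signs over all times: Atp5b, Ndufa9, Ndufc2, Ndufs1, Sdhb and Uqcrc2.

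At 8 h the smallest p belonged to a probe set of Ndufb7 present on 3 arrays, with 20.9 and 26.2 in p25alpha cells and 11 and 12.9 in mock cells (0.97 ± 0.28, adjusted p = 0.977), and the other had -0.14 ± 0.15. Atp5b (-0.30 ± 0.13, by the same probe set as at 12 h), Atp5g2 (-0.66 ± 0.33, by a probe set present on 4 arrays) and Ndufs7 (-0.26 ± 0.16) followed, each with adjusted p = 0.977. At 16 h the smallest p belonged to Atp5i (0.36 ± 0.17, adjusted p = 0.609), Ndufs1 (0.41 ± 0.19 by a probe set present on 11 arrays, adjusted p = 0.61), Atp5a1 (-0.24 ± 0.12, adjusted p = 0.623) and Ndufv1 (-0.31 ± 0.16, adjusted p = 0.658). Whether the p25alpha difference depends on time was tested with a moderated F-test: 0 of 86 members passed (0% of all tested probe sets), and the smallest adjusted p was 0.999.

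The authors' deposited table holds a change call for each pair of arrays. For p25alpha over mock it called 12 of 516 member values changed, 8 increased and 4 decreased, in 11 members. At 8 h in experiment 1 these were Atp5d, Ndufs5b and Ndufab1 (increased). At 12 h they were Atp5b by one probe set and Atp5d in experiment 1 (decreased) and Atp5e, Cox6c1, Uqcrb, Atp5b by its other probe set and Cox6a1 in experiment 2 (increased, Cox6a1 marginally). At 16 h they were Uqcrh and Ndufa13 in experiment 1 (decreased). No member of the authors' deposited table was called the same way at the same time in both experiments. How many of all tested probe sets were so called was not counted. Per pair, that table called 1.12% to 3.3% of all tested probe sets increased and 0.31% to 4.73% decreased.

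Promoters were examined because these genes are known to share binding sites for NRF1, for ETS factors such as GABP (NRF2) and for YY1. Sequences are RefSeq windows of build GRCr8, from 250 bases before to 50 bases after the annotated start, and 61 of 70 member genes with a current symbol had one. Searched on both strands were GCATGCGC (NRF1 type), CCGGAAG (ETS type) and AAGATGGCG (YY1 type). The NRF1-type letters were in 13.1% of the 61 member windows, against 3.1% of 21851 windows of protein-coding genes and 2.5% of all 33469. The ETS-type letters were in 32.8%, against 10.7% and 8.7%, and the YY1-type letters in 14.8%, against 2.1% and 1.7%. Any of them was found in 49.2% of member windows and in 14.7% of protein-coding ones. Members had to be detected on these arrays, and the share among all detected genes was not counted. The 37 member probe sets of genes with a match had a median p25alpha difference of 0.073 at 12 h, and the 37 of genes with none 0.137. Shown are the windows of Atp5i (Atp5me), which had the smallest p over all times, of Uqcrc2, with the largest difference at 12 h among members present on all arrays, and of Cox4i1, the regulatory subunit of complex IV. They lie at chr14:1464610-1464909, chr1:184598990-184599289 and chr19:65630133-65630432, all on the plus strand, with matches in capitals (2 overlapping NRF1-type, 1 per strand, and 1 ETS-type in Atp5me, 2 ETS-type in each of the others).
Atp5me: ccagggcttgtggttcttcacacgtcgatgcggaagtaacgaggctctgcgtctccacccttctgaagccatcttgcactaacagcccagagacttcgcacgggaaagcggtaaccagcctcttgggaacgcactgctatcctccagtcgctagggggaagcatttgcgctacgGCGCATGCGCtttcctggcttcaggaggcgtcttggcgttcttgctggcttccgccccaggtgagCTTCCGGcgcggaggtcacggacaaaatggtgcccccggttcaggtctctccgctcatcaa
Uqcrc2: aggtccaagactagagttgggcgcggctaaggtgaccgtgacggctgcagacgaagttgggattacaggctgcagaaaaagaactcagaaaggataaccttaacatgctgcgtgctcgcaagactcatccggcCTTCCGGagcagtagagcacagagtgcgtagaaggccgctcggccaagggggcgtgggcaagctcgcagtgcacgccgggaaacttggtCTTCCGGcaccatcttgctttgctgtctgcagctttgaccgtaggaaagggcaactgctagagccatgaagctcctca
Cox4i1: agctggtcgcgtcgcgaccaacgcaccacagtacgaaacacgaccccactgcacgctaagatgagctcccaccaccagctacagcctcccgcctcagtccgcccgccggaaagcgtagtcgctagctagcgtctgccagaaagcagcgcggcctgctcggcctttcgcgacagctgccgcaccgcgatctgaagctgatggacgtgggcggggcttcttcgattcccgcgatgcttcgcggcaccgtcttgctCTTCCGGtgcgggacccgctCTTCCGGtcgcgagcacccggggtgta

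The second question was whether the transcripts drift with time after transfection, over both arms. Between 8 and 12 h 0 of 86 members passed (0.0052% of all tested probe sets), with 38 higher at 12 h and a median of -0.014. Between 8 and 16 h 0 of 86 passed (0.0156% of all tested probe sets), with 42 higher at 16 h and a median of -0.002, against -0.023 over all tested. The smallest p at 16 h against 8 h belonged to Ndufa7 by a probe set present on 11 arrays (-0.48 ± 0.16, adjusted p = 0.408), Ndufb7 (-0.31 ± 0.11, adjusted p = 0.43), Ndufa5 (-0.24 ± 0.11, adjusted p = 0.508) and Ndufv1 (-0.26 ± 0.12, adjusted p = 0.51). With the actin ratio as a covariate, Ndufa7 and Ndufb7 had 0.067 and 0.015. That ratio rose from 8 to 16 h in both arms of both experiments, so this fit separates it poorly from time. At 12 h against 8 h Uqcrc2 (-0.52 ± 0.17, adjusted p = 0.84), Sdhb (-0.42 ± 0.17), Ndufa7 (-0.37 ± 0.16) and Ndufa11 (-0.21 ± 0.09) had the smallest p, the last 3 with adjusted p = 0.854. For Uqcrc2, Sdhb and Ndufa7, and for Ndufb7 at 16 h, the value came from 1 of 2 probe sets. The median of complex III at 12 h against 8 h was -0.016.

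Behind these means, the 2 experiments had medians of opposite sign. From 8 to 16 h the median member moved by 0.109 in p25alpha cells and by 0.170 in mock cells in experiment 1, with 56 and 66 of 86 higher at 16 h. In experiment 2 it moved by -0.120 in p25alpha cells and by -0.175 in mock cells, with 71 and 72 of 86 lower. Over all tested probe sets the same 4 medians were -0.049, -0.052, 0.025 and 0.013. In experiment 1 up in both arms and in experiment 2 down in both arms were 35 of 86 members (40.7%), against 6.9% of all tested probe sets. The reverse pattern was found in 0 members and in 11.2% of all tested probe sets. This pattern was noticed in the data. Each experiment holds both arms at each time once, so the experiment is a batch that both arms share. The authors' change calls between neighbouring times marked 31 of 688 member values, 18 increased and 13 decreased. From 8 to 12 h in experiment 1, 4 of 86 members increased and 3 decreased in mock cells (2.66% and 5.9% of all tested probe sets). In p25alpha cells these were 0 and 2 (1.29% and 4.49%). In experiment 2 they were 0 and 4 in mock cells (2.43% and 1.26%) and 0 and 1 in p25alpha cells (2.51% and 1.77%). From 12 to 16 h in experiment 1, 12 of 86 members increased in mock cells (2.26% of all tested probe sets). There 0 increased in p25alpha cells (0.56%). In experiment 2 that step had 2 increased and 0 decreased in mock cells (2.74% and 2.69%). In p25alpha cells it had 0 and 3 (1.14% and 1.4%).

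Cycs, the electron carrier between complexes III and IV, is an example with a large difference between the experiments. It was among the members with the smallest p for the 8 to 16 h change in experiment 2 minus experiment 1. The median of that difference was -0.49 in cytochrome c and -0.31 over all members. By one of its 2 probe sets, p25alpha cells measured 2612, 3037 and 3285 at 8, 12 and 16 h in experiment 1, and mock cells 2658, 2637 and 3043. In experiment 2 p25alpha cells measured 3166, 3078 and 2764 and mock cells 3062, 2747 and 2430. The 16 h array was the highest of each arm in experiment 1 and the lowest in experiment 2. The change from 8 to 16 h in experiment 2 minus that in experiment 1 was -0.53 ± 0.15 (95% interval -0.89 to -0.16, with the arms as repeats). By the other probe set it was -0.45 ± 0.16.

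**Figure D4:**
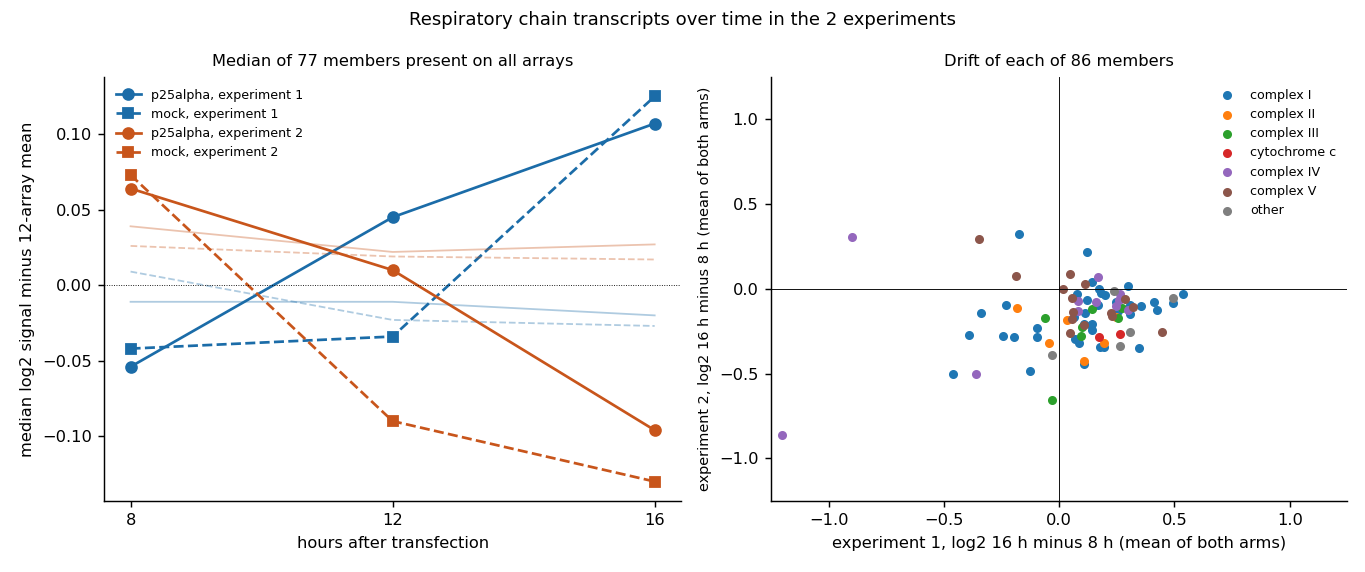
Left, median log2 signal of the 77 members present on all arrays minus their 12-array mean, by hours after transfection, for p25alpha (solid) and mock (dashed) in each experiment, with all probe sets present on all arrays as faint lines; right, change from 8 to 16 h of each member in experiment 2 against experiment 1, values beyond 1.2 drawn at the edge. The members' median is higher at 16 h than at 8 h in experiment 1 and lower in experiment 2 in both arms, while the faint lines stay within 0.039 of 0, and most points lie at the lower right.

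A fit with a mean for each experiment at each time and a term for the arm tested this difference per probe set. The 2 arms served as the repeats within each experiment and time. Its p-values and intervals therefore reflect scatter between arms and not variation between experiments. For 16 h against 8 h 0 of 86 members passed (0% of all tested probe sets), and 20 (23.26%) had an unadjusted p under 0.05, against 11.66% of all tested. The median member difference was -0.31 with 75 of 86 below 0, against 0.079 with 43.0% below 0 over all tested probe sets. For 12 h against 8 h the median was -0.17 with 70 below 0, 0 members passed (0% of all tested probe sets) and 3 (3.49%) had an unadjusted p under 0.05, against 5.11% of all tested probe sets. Every complex had a negative median at 16 h: -0.295 in complex I (35 of 40 below 0), -0.343 in complex II (5 of 6), -0.371 in complex III (7 of 7), -0.49 in cytochrome c (2 of 2), -0.212 in complex IV (9 of 11) and -0.234 in complex V (12 of 15). The smallest p belonged to Ndufb5 (-0.57 ± 0.14), Cycs, Atp5e (-0.70 ± 0.22) and Ndufv2 (-0.52 ± 0.16), each with adjusted p = 0.376. Sdha differed by 0.07 ± 0.15 and Atp5b by 0.04 ± 0.21 and 0.26 ± 0.30 by its 2 probe sets.

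The same difference was taken in the other gene lists, in which 0 genes passed. Of 60 mitochondrial ribosomal protein genes, 56 lay below 0 (median -0.352), as did 23 of 30 genes of assembly factors (-0.25), 25 of 30 of import, chaperones and dynamics (-0.216) 10 of 12 of ATP export, channels and uncoupling (-0.211) and 6 of 9 mitochondrial antioxidants (-0.381). Genes of the citric acid cycle and pyruvate dehydrogenase had a median of -0.019 with 13 of 23 below 0, biogenesis regulators -0.048 with 13 of 20 below 0, and other electron donors to ubiquinone 0.041 with 3 of 5 above 0. Of the cell type markers, oligodendrocyte lineage genes had a median of 0.384 (9 of 11 above 0), neuron genes 0.302 (6 of 8), fibroblast and smooth muscle genes 0.632 (3 of 5) and astrocyte genes -0.123 (2 of 5), and the part of cell composition in the drift was not tested. The actin 3′ over 5′ ratio was higher at 16 h than at 8 h in both arms of both experiments: in experiment 2 it was 4.74, 5.6 and 6.08 in p25alpha cells and 4.65, 5.35 and 7.05 in mock cells at 8, 12 and 16 h, and in experiment 1 it was 2.4, 2.45 and 3.12 in p25alpha cells and 2.14, 2.49 and 2.6 in mock cells. Its part in the drift was not tested.

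The experiments also differed in level. Experiment 2 minus experiment 1, averaged over the groups, ran from -1.04 (Atp5d) and -1.01 (Cox4nb) to 1.37 (Ndufs1, by the probe set present on 11 arrays), with a median of -0.015. A difference over 0.5 either way was found in 19 of 86 members (22.1%) and in 41.6% of all tested probe sets, as a description with no test. Complex IV had a median of 0.277, complex II of -0.20 and complex III of -0.151. Each of the 6 groups gives 1 such difference.

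Other mitochondrial gene lists were compared for p25alpha against mock over all times, each gene by its brightest probe set. In either direction, 0 of 60 mitochondrial ribosomal protein genes (38 higher, median 0.026), 0 of 30 assembly factors (19 higher, 0.040), 0 of 20 biogenesis regulators (15 higher, 0.079) and 0 of 23 genes of the citric acid cycle and pyruvate dehydrogenase (10 higher, -0.014) passed. So did 0 of 30 of import, chaperones and dynamics (17 higher, 0.006), 0 of 12 of ATP export, channels and uncoupling (10 higher, 0.115), 0 of 9 mitochondrial antioxidants (4 higher, -0.026) and 0 of 5 other electron donors to ubiquinone (0 higher, -0.176). At 12 h the medians were 0.113 in assembly factors (19 of 30 higher), 0.104 in ATP export, channels and uncoupling (11 of 12) and 0.062 in mitochondrial ribosomal proteins (36 of 60). They were 0.055 in import, chaperones and dynamics (17 of 30), 0.008 in biogenesis regulators (11 of 20) and -0.018 in citric acid cycle genes (11 of 23). Antioxidants had -0.161 (3 of 9) and other electron donors -0.235 (2 of 5).

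The genes of these lists with the smallest p did not pass. Sdhaf1 and Sdhaf2, assembly factors of complex II, differed by 0.30 ± 0.09 (adjusted p = 0.222) and -0.22 ± 0.08, and Cox17, a copper chaperone of complex IV, by -0.28 ± 0.12. Tfb2m, a factor of mitochondrial transcription, differed by 0.23 ± 0.08 (adjusted p = 0.274), and Polg2 and Polg, of the mitochondrial DNA polymerase, by 0.14 ± 0.07 and -0.16 ± 0.10. Nnt, a proton-driven NADPH source, differed by -0.25 ± 0.07 (adjusted p = 0.236) and Glrx2 by -0.18 ± 0.07. Dhodh, Etfb and Etfdh, which pass electrons to ubiquinone outside complexes I and II, differed by -0.25 ± 0.11, -0.14 ± 0.07 and -0.18 ± 0.10. Mrps30 and Mrpl43 of the mitochondrial ribosome differed by -0.25 ± 0.07 and 0.24 ± 0.07. Pdp1 and Pdk1, which activate and inhibit pyruvate dehydrogenase, differed by 0.15 ± 0.06 and -0.30 ± 0.15, Ppif by -0.23 ± 0.10, Vdac2 by 0.14 ± 0.08, and the mitochondrial proteases or chaperones Lonp1, Clpx and Phb2 by -0.19 ± 0.07, -0.19 ± 0.07 and -0.19 ± 0.08.

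Cell type marker lists were set beside these values. Over all times 0 of 11 tested oligodendrocyte lineage genes passed (4 higher), with summed signals of 3524 to 4917 in p25alpha cells and 3917 to 4832 in mock cells. The sums overlapped for the 5 astrocyte genes (1919 to 3126 in p25alpha cells and 1933 to 3277 in mock cells), the 8 neuron genes (438 to 825 in p25alpha cells and 449 to 813 in mock cells) and the 5 fibroblast and smooth muscle genes (231 to 468 in p25alpha cells and 307 to 474 in mock cells), and 0 genes of these lists passed. Of the fibroblast and smooth muscle genes 0 of 5 were higher (median -0.273), and Acta2, smooth muscle actin, had the largest difference of them (-1.12 ± 0.31, unadjusted p = 0.009 and adjusted p = 0.213 by limma). Neuron genes had 5 of 8 higher (median 0.173) and astrocyte genes 1 of 5 (median -0.010). Nkx2-2 had the smallest p of the lineage genes (-0.38 ± 0.10, adjusted p = 0.199). The part of cell composition in the members' values was not tested.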

How the data were processed

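Total RNA was labelled as biotinylated cRNA, 1 array per sample, per the labels' protocols. The deposited intensity values are linear signals from MAS5 (submitters' processing notes), and every array has the same 2% trimmed mean of 150.1. Detection calls, and log2 signal log ratios with change calls for pairs of arrays, were deposited too, per the file headers. A second table with rounded intensities differed by at most 0.5 units and served to check the columns, and 3 probe sets are not analysed here. Some items are not reported here.

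Signals were floored at 0.1 and log2 was taken. Probe sets present on at least 2 of 12 arrays were kept, without 57 control probe sets, which left 19248 (61.9%). Dim signals are noisy on the log scale, and levels of different probe sets were not compared. Symbols were updated through RefSeq (GRCr8). Of the 86 members, 62 kept a current symbol, 22 matched a synonym and 2 list several symbols.

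Linear models of limma 3.58.1 (lmFit, eBayes; R 4.3.3) were fitted to all 19248 probe sets with 6 group means and the experiment as a block. The titles number the experiments, and deviations of same-numbered arrays correlated at 0.47 to 0.57 in 15 pairs of groups, so the block was used. Benjamini-Hochberg adjustment ran over the whole table (threshold 0.05). The code was tested on simulated data. Alternatives were no block or a random block, quantile or median scaling, other filters, an offset of 50, trend and robust variance, only the times compared, 1 probe set per gene, the actin ratio as a covariate, the authors' signal log ratios and leaving out each array. The block by pair and the fit of the difference between experiments were added after seeing the data. Members, lists and the rule for named genes (those past the threshold, otherwise the smallest p, the brightest and most different of each complex, and key subunits) were chosen with earlier results of these data known.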

Additional observations from a re-analysis of the deposited data

Results flagged for a closer look

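The change from 8 to 16 h went opposite ways in the 2 experiments, in both arms. The median over the 86 members was 0.109 in p25alpha cells and 0.17 in mock cells of experiment 1, and -0.12 in p25alpha cells and -0.175 in mock cells of experiment 2 (log2, 16 h minus 8 h). The difference of the medians was not tested. Tested per probe set, with the arms as repeats, 0 of 86 members passed. The difference was below 0 in 75 of 86 members, and its median was -0.31, or from -0.369 to -0.25 with each array left out in turn.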

How the results depend on the processing

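The count of members past the threshold was 0 in each comparison with each alternative, except 1 higher at 12 h (Uqcrc2) with trend and robust variance. With that setting 46 and 11 of the 19248 tested probe sets passed higher and lower at 12 h, against 10 and 1 in the main fit. Over all times 249 and 170 passed higher and lower with it, against 40 and 6. Without the replicate block, 0 members passed and the medians were the same (0.026 over all times). Over all times, the probe sets passing higher and lower were 4 and 0 without that block, 197 and 160 with a filter at the median signal, 14 and 3 with no filter, 283 and 183 with an offset of 50, 16 and 1 with the block and the actin ratio, and 10 and 0 with a block for each pair. No single array left out changed a member count. The median p25alpha difference at 12 h, 0.106, became 0.074 with quantile normalization, 0.113 with median centring, 0.072 with a filter at the median signal or 1 probe set per gene, 0.085 with an offset of 50, 0.112 with the replicate block and the actin ratio as covariate, and 0.15 by the authors' signal log ratio. With the actin covariate the 8 h median was 0.051. The changes from 8 to 16 h of Ndufa7 and Ndufb7 were then 0.067 and 0.015, of opposite sign to the main fit. The actin ratio rose with time in both experiments, so that fit separates it poorly from time. The experiment difference in change to 12 h had a median of -0.17, and -0.139, -0.222 and -0.149 with quantile normalization, median centring and an offset of 50. That to 16 h had -0.31, and -0.444 with median centring, which also moved the median of all tested probe sets from 0.079 to -0.055. With each array left out in turn the member medians ran from -0.111 to 0.107 at 8 h, from 0.085 to 0.122 at 12 h, from -0.117 to 0.101 at 16 h and from -0.012 to 0.069 over all times. They ran from -0.064 to 0.026 for 12 h against 8 h, from -0.078 to 0.049 for 16 h against 8 h, and from -0.22 to -0.12 and -0.369 to -0.25 for the experiment differences at 12 and 16 h. Leaving out 1 array turned the sign of the 8 h median (experiment 1 mock -0.111, experiment 2 p25alpha -0.062) and of the 16 h median (experiment 1 p25alpha -0.046, experiment 2 mock -0.117), and leaving out the last turned that over all times (-0.012). A group left with 1 array was assumed to vary like the others. Causes were not tested.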
